A study of Mus musculus with 6 samples.

Results

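Oocytes and the follicle cells around them depend on signals that pass in both directions, and 8 genes of this exchange, chosen by symbol, were followed in MII oocytes from aged mice matured with or without quercetin. They are the secreted factors *Gdf9*, *Bmp15*, *Bmp6* and *Fgf8*, the receptors *Kit* and *Bmpr2*, the gap junction gene *Gja4* and the protease gene *Furin*. The symbols were matched to Ensembl identifiers, and all 8 were found among the 53465 genes of the count table. All 8 also had enough reads to enter the comparison of 11842 genes.

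RNA was sequenced from 6 pools, and each pool held 15 oocytes taken from 3 female Kunming (KM) mice aged 9 to 10 months, so a value describes a pool and not an animal or a single oocyte. The study's methods state that mice were injected with pregnant mare serum gonadotropin before oocytes at the germinal vesicle (GV) stage were collected. These oocytes were stripped of cumulus cells and matured in vitro (IVM) for 16 h in M16 medium. They were taken for sequencing at MII, the stage at which the mature egg waits for sperm. The 3 control pools matured without quercetin and the 3 quercetin pools with 10 μM quercetin, a plant flavonol dissolved in DMSO, and no pool of young oocytes was analysed here. The labels name no mutant allele or further agent, and nothing in the sources used here says whether pools of the same number share mice or a day of work.

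An oocyte grows inside a follicle, and GDF9 and BMP15, both members of the TGF-β family made by the oocyte, act on the granulosa and cumulus cells around it and drive their growth and the expansion of the cumulus. Like other members of this family they are made as precursors, and proteases of the furin class cut off the part that is not the mature factor. BMPR2 is the type II receptor through which both factors signal, FGF8 acts together with BMP15 on the metabolism of cumulus cells, and KIT on the oocyte receives KIT ligand from the granulosa cells. *Gja4* encodes connexin 37, the oocyte's side of the gap junctions through which small molecules reach it from the follicle cells.

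The stretches of *Bmp15* and *Gdf9* that the qPCR primers listed by the study amplify are shown first, since the listed names and the matching genes differ for both. A match had to be free of mismatches in a GENCODE M21 mouse transcript (GRCm38), and in the lines that follow the primer sites are in capitals, on the coding strand.
Bmp15: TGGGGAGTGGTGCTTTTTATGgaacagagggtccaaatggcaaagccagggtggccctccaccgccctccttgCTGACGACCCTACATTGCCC
Gdf9: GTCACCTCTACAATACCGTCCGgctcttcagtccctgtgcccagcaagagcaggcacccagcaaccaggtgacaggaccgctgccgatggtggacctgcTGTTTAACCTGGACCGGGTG
The *Bmp15* product of 93 bases lies in coding sequence of exon 1, at chrX:6320238-6320330 on the minus strand, and its primers are listed under *Sirt3*. The *Gdf9* product of 119 bases is coding sequence that joins exon 1 to exon 2, between chr11:53433728-53436659 on the plus strand, and its primers are listed under *Bmp15*. The primers listed under *Gdf9* matched transcripts of *Sod2* and of no other gene. From the list it cannot be told whether its names and sequences are displaced against each other, and this was not tested. The counts described next do not depend on any primer.

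Total counts were between 7880467 and 9938743 per pool, and TMM factors between 0.920 and 1.06. At this depth 3 counts, the floor used here, correspond to 0.329 to 0.376 CPM (counts per 1000000 counts of the TMM-scaled library), and the floor covers counting error only. Of 12 oocyte markers, 11 were tested, and their summed level ran from 22894 to 26691 CPM in control pools and from 24196 to 28608 CPM in quercetin pools. The sum rests on abundant markers such as *Dppa3* (6854 to 10118.5 CPM). Single markers could vary far more between pools, as *Zp2*, picked after its values were seen, from 131 to 1560 CPM. Of 15 cumulus and granulosa markers, 3 had no count in any pool (*Ptx3*, *Amhr2* and *Foxl2*) and *Gja1*, the cumulus cell's main connexin, had at most 5 counts. The summed level of this list was 82.4 to 101.7 CPM in control pools and 108.4 to 110.5 CPM in quercetin pools, without overlap, and most of it was *Cyp19a1* (aromatase), with a mean of 69.5 CPM. The part of this difference in the results on the 8 genes was not tested.

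None of the 8 genes passed edgeR's quasi-likelihood test, where a call needed a more than 2-fold change and a Benjamini-Hochberg p below 0.05 over all tested genes, and 0% of all tested genes did (DESeq2 called 11 and the likelihood ratio test 16 of all genes). Without adjustment, 0 of the 8 were below 0.05, against 4.03% of all tested genes (2.14% higher and 1.89% lower with quercetin, and 0.87% with a more than 2-fold change as well). By either criterion DESeq2, limma-voom and the likelihood ratio test of edgeR gave 0 of 8 too. The fold changes were small. They ran from 0.778 for *Furin* to 1.17 for *Gdf9*, with 5 genes above 1 and 3 below, while 46.4% of all tested genes had a log2 fold change above 0. For 7 of the 8 genes the 95% interval of the fold change lay within a 2-fold change in either direction, which held for 60.7% of all tested genes, and the interval of *Furin* passed that limit on the lower side. A p that misses the threshold does not show that the levels were equal, and the intervals give the sizes that remain possible. Since nothing says that the pools of one group were separate cultures, these values measure the spread between pools, which may in part be technical.

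**Figure D1:**
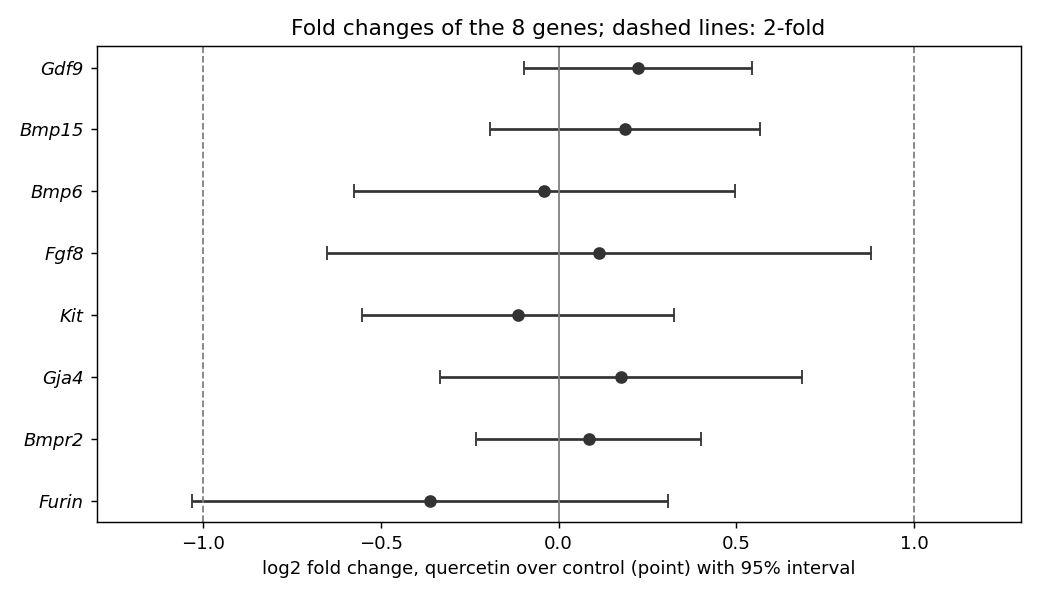
Log2 fold change of each gene, quercetin over control (x axis, points), with its 95% interval from edgeR's quasi-likelihood fit over 3 pools a group (bars); dashed lines mark a 2-fold change. All 8 intervals include 0, and the interval of *Furin*, from -1.03 to 0.31, is the one that crosses a dashed line.

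*Gdf9* (ENSMUSG00000018238), on chromosome 11 from 53431023 to 53437904 (GRCm38), was the most abundant of the 8 and ranked 13 among the 11842 tested genes by mean CPM. Its level was 5864, 5583 and 5833 CPM without quercetin and 7504, 6007 and 6663 CPM with it. Every quercetin pool lay above every control pool, with quercetin replicate 1 highest and quercetin replicate 2 closest to the controls. Mean levels were 5760 ± 154 and 6725 ± 750.5 CPM (SD, n = 3), which gave a log2 fold change of 0.22 (standard error, SE, 0.14, 95% interval -0.10 to 0.54, adjusted p = 0.988 in edgeR's quasi-likelihood test).

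A two-sided exact permutation test gave p = 0.1 for *Gdf9*, the smallest that 3 pools against 3 can give. Groups without overlap were found for 1 of the 8 genes, against 10.6% of all tested genes, of which every quercetin pool was higher in 5.42% and lower in 5.17%. *Gdf9* also stayed apart with the size factors of DESeq2, as did 6.11% of all tested genes in the same direction. The separation of *Gdf9* rested on the scaling, because by library size only the pools had 6046, 5916 and 5840 CPM without quercetin and 7096, 5526 and 7004 with it, so that quercetin replicate 2 was the lowest of all (3.88% of all tested genes had every quercetin pool higher on that scale). Without quercetin replicate 1 the log2 fold change was 0.14.

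*Bmp15* (ENSMUSG00000023279), on chromosome X from 6314107 to 6320721, is known as the partner with which GDF9 forms a more active heterodimer. It ranked 61 by mean CPM. Its level was 1736, 2172 and 2269 CPM without quercetin and 1955, 2603 and 2473 CPM with it. The groups overlapped, since quercetin replicate 1 lay below 2 of the control pools. Mean levels were 2059 ± 284 and 2344 ± 343 CPM (SD, n = 3), a difference of 0.19 on the log2 scale (SE 0.17, 95% interval -0.19 to 0.57), and a two-sided exact permutation test gave p = 0.4.

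The balance of the 2 factors was read within each pool, where no scaling enters. Per exon length, *Gdf9* stood at 5.09, 3.87 and 3.87 times the level of *Bmp15* in the control pools and at 5.78, 3.48 and 4.06 times in the quercetin pools. The quercetin pools held both the highest and the lowest ratio, so the groups overlapped. The mean ratio was 4.28 ± 0.702 without and 4.44 ± 1.20 with quercetin (SD, n = 3). The exact permutation test, two-sided, gave p = 0.8 (also 0.8 after Benjamini-Hochberg adjustment over 5 such ratios). Across the 6 pools the log2 levels of *Gdf9* and *Bmp15* were hardly related (Pearson r = -0.08, a description over pools that share 2 treatments).

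**Figure D2:**
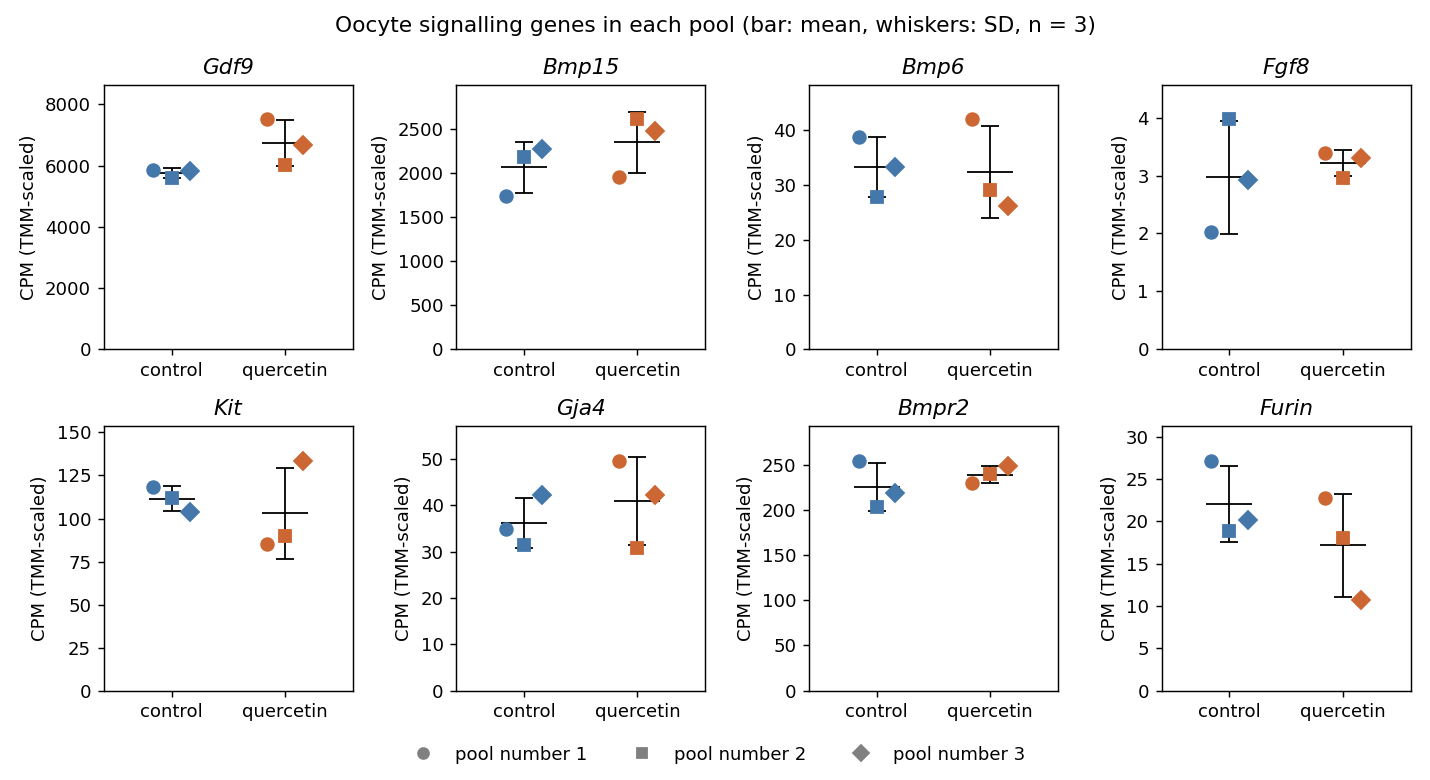
CPM in TMM-scaled libraries (y axes, each from 0) of the 8 genes in the 3 control and 3 quercetin pools; symbols mark the pool number, and the bar and whiskers give mean and SD over 3 pools. In *Gdf9* alone of the 8 panels the groups do not overlap on this scale, which library size only does not keep.

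The other ligands were far less abundant. *Bmp6* (ENSMUSG00000039004), on chromosome 13 from 38345107 to 38500302, encodes a bone morphogenetic protein made by the oocyte that signals to granulosa cells. Control pools held 346, 231 and 296 of its counts (38.8, 27.8 and 33.3 CPM), and quercetin pools 335, 265 and 222 (42.0, 29.1 and 26.1 CPM). The highest and the lowest pool were both quercetin pools. For *Bmp6* the log2 fold change was -0.04 (SE 0.24, 95% interval -0.58 to 0.50), and 5.74% of its exon length overlaps *Txndc5* on the other strand, from which reads without strand cannot be told apart.

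*Fgf8* (ENSMUSG00000025219), on chromosome 19 from 45736798 to 45742915, was the member with the fewest counts. Control pools held 18, 33 and 26 of them, and quercetin pools 27, 27 and 28. On the CPM scale this was 2.02, 3.97 and 2.93 without and 3.38, 2.96 and 3.30 with quercetin, and all quercetin pools lay inside the range of the controls. Its log2 fold change was 0.11 (SE 0.34, 95% interval -0.65 to 0.88). As a fold change this interval ran from 0.637 to 1.84.

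Among the receptors, *Bmpr2* (ENSMUSG00000067336), on chromosome 1 from 59763400 to 59879014, encodes the type II receptor for GDF9 and BMP15. Its level was 254.6, 202.8 and 219.0 CPM without quercetin and 229.4, 239.8 and 248.2 CPM with it. All quercetin pools lay between the lowest and the highest control pool. This gave a log2 fold change of 0.08 (SE 0.14, 95% interval -0.23 to 0.40), and the spread within groups, an SD of 0.12 in log2 CPM, was smaller than that of 93.8% of tested genes. The spread of *Gdf9*, also 0.12, was smaller than that of 94.9% of them, and the median of all tested genes was 0.32. These shares were not matched for level, and *Bmpr2* and *Gdf9* ranked 779 and 13 by mean CPM.

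*Kit* (ENSMUSG00000005672), on chromosome 5 from 75574916 to 75656722, encodes the receptor tyrosine kinase for KIT ligand. Its level was 118.5, 111.7 and 104.0 CPM without quercetin and 85.3, 89.8 and 133.6 CPM with it. Quercetin replicates 1 and 2 lay below every control pool, and quercetin replicate 3 lay above all of them. Its log2 fold change was -0.11 (SE 0.19, 95% interval -0.55 to 0.32, two-sided exact permutation test, p = 0.5). This value turned on single pools, since it was -0.34 without quercetin replicate 3 (unadjusted p = 0.0393, adjusted p = 0.365 in edgeR's quasi-likelihood test) and 0.0048 without quercetin replicate 1. In the fit without quercetin replicate 3, 1 of the 8 genes and 1563 of all 12258 tested genes had an unadjusted p under 0.05. The p of *Kit* is thus not particular to it.

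*Gja4* (ENSMUSG00000050234), on chromosome 4 from 127311421 to 127314039, the gap junction gene, stood at 34.8, 31.5 and 42.2 CPM without quercetin and at 49.6, 30.7 and 42.3 CPM with it. The groups overlapped, and quercetin pools were again both the highest and the lowest. The difference was 0.18 on the log2 scale (SE 0.23, 95% interval -0.33 to 0.69), and 0.01 without quercetin replicate 1.

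*Furin* (ENSMUSG00000030530), on chromosome 7 from 80388585 to 80405436, had the largest fold change of the 8. Control pools held 242, 157 and 179 of its counts (27.2, 18.9 and 20.1 CPM), and quercetin pools 182, 164 and 91 (22.8, 18.0 and 10.7 CPM). Quercetin replicate 1 lay above 2 of the control pools, and quercetin replicate 3 was far below all others. Its log2 fold change was -0.36 (SE 0.30, 95% interval -1.03 to 0.31, p = 0.4 in the exact permutation test), and 24.9% of all tested genes had a larger one in size. Without quercetin replicate 3 it was -0.11 and without control replicate 1 it was -0.18. Reads from 3.25% of the 31-base stretches of its exons could also match other genes.

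Set against *Gdf9* in the same pool, whose product is a precursor of the kind furin cuts, *Furin* had 4.63, 3.38 and 3.45 counts per 1000 *Gdf9* counts without quercetin and 3.04, 2.99 and 1.61 with it. Every quercetin pool was lower, with means of 2.55 ± 0.814 against 3.82 ± 0.702 (SD, n = 3). The exact permutation test, two-sided, gave its smallest possible value, p = 0.1, and 0.5 after Benjamini-Hochberg adjustment over 5 ratios between members. These ratios were chosen after the values were seen, and the adjustment does not cover that choice. This one sets the member with the largest fall against the member already higher in every quercetin pool, so its separation is not a further result. The share of all gene pairs that separate in this way was not computed. The 3 remaining ratios, of *Bmp6* and of *Bmpr2* to *Bmp15* and of *Kit* to *Gja4*, overlapped between the groups.

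Levels of different genes were compared as CPM per kb of annotated exon. In this order *Gdf9* came first with 3074 ± 353 (SD over 6 pools), followed by *Bmp15* with 719 ± 105, *Gja4* with 22.9 ± 4.40, *Bmpr2* with 12.9 ± 1.07, *Kit* with 12.0 ± 2.03, *Bmp6* with 8.42 ± 1.64, *Fgf8* with 2.29 ± 0.478 and *Furin* with 2.14 ± 0.596. The lowest pool of *Gdf9*, *Bmp15*, *Gja4* and *Bmp6* lay above the highest pool of the gene that followed. Neighbours that did not differ beyond their spread were *Bmpr2* and *Kit*, *Kit* and *Bmp6*, and *Fgf8* and *Furin*. *Gdf9* was thus 4.27 times as high as *Bmp15* per exon length, and *Bmp15* was 31.5 times as high as *Gja4*. The exon length joins all annotated transcripts, 17983 bases for *Bmpr2* and 2031 for *Gdf9*, so a gene with long unused exons would be placed too low.

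**Figure D3:**
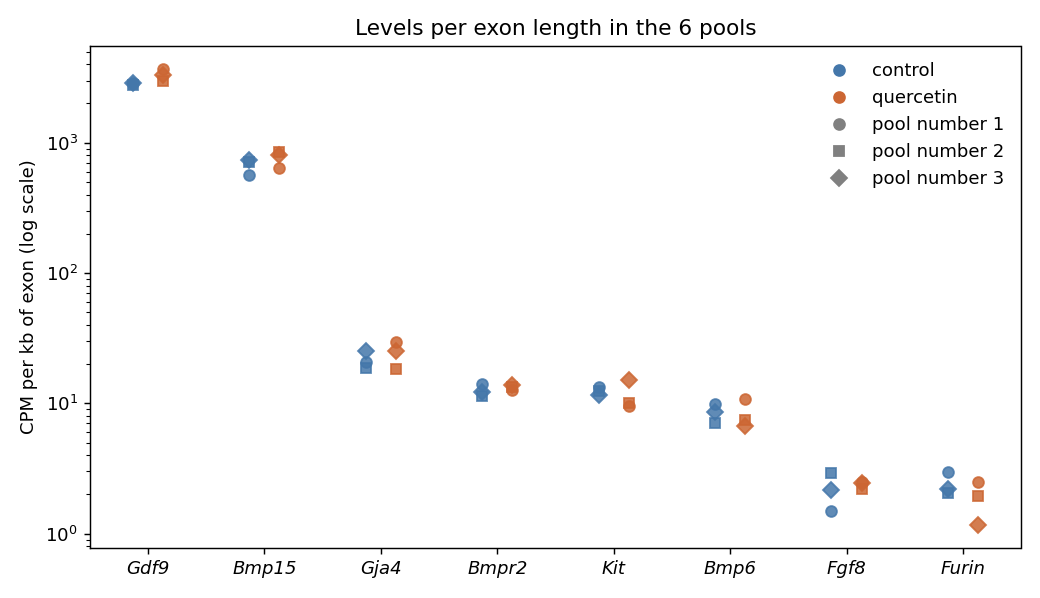
CPM per kb of exon on a log scale (y axis) for the 8 genes in order of their mean, with 1 symbol a pool (colour: group, shape: pool number). *Gdf9* and *Bmp15* stand apart from the other 6, which lie between 1.17 and 29.4 in every pool.

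For several of the 8 genes both pools of a number lay above or below the 4 others, which was seen only after the values were known. In the 2 pools numbered 1, *Bmp15* was lower than in all 4 others (1736 and 1955 against at least 2172 CPM), and *Bmp6* and *Furin* were higher than in all 4 others. Among all tested genes, the pools numbered 1 were both the highest in 10.1% and both the lowest in 8.94%. *Gja4* was lowest in both pools numbered 2, as were 5.90% of all tested genes, while 7.44% were highest in both. No member stood apart in the pools numbered 3, where 5.81% of all tested genes were highest and 5.80% lowest. Such patterns were thus common among all tested genes, and the members are not shown to differ from them. Oocyte markers were also looked at by pool number, after their values were known. The zona pellucida gene *Zp2* was lowest in the pools numbered 1, at 223 and 131 CPM against 630 to 1560 in the 4 others. So were *Zp1* (172 and 165 against at least 360), *Zp3* (228 and 209 against at least 324) and *Nlrp5* (195 and 205 against at least 226 CPM). *Dppa3*, *Ooep*, *Zar1* and *Mos* did not follow, and the list was not tested as a set. The sources do not say what the number stands for, and its part in these results was not tested.

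The 2 genes whose pattern over the 6 pools was most like that of each member were sought among 7930 genes with a mean of at least 5 CPM, by Pearson's r of log2 CPM, given as a description. Most like *Gdf9* were *Stradb* (r = 0.990) and *Nfe2l2* (r = 0.978). Most like *Bmp15* were *Zfp980* (r = 0.990) and *Ripply3* (r = 0.984), and most like *Kit* were *Usp9x* (r = 0.997) and *Arnt* (r = 0.991). For *Bmp6* they were *Ttc39c* and *Ywhab* (r = 0.988 and 0.985), for *Furin* *Ncapd2* and *Ubr1* (r = 0.989 and 0.988), and for *Gja4* *I830077J02Rik* and *Rttn* (r = 0.979 and 0.963). For *Fgf8* they were *Ackr3* and *Neto2* (r = 0.968 and 0.965) and for *Bmpr2* *Sema3e* and *Prpf38a* (r = 0.962 and 0.949). Between 22 and 239 genes had r above 0.9 with a given member. Each named r is among the 2 highest of 7930 over only 6 pools, so its size reflects the search and was not tested.

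The rest of the machinery was read from 8 lists of receptors, SMADs, further ligands, antagonists, convertases, FGF signalling, KIT and PI3K signalling, and connexins, with 145 genes in the table. Of these, 76 were tested, 34 higher and 42 lower with quercetin, with a median log2 fold change of -0.04 against -0.03 over all tested genes. None was called in edgeR's quasi-likelihood test, and 4 had an unadjusted p under 0.05 (5.26%, against 4.03% of all tested genes). A single gene of them, *Pik3ca*, was called by DESeq2 and by the likelihood ratio test of edgeR, and limma-voom called 0.

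Among 15 other receptors of the TGF-β family, 10 were tested, 5 higher and 5 lower, with a median log2 fold change of -0.04. *Bmpr1b*, the type I receptor that pairs with BMPR2 for BMP15, was the highest of them at 40.1 CPM per kb, and *Tgfbr3*, a co-receptor, followed at 12.2. *Tgfbr1*, the type I receptor that GDF9 uses, had 100, 111 and 148 counts without and 188, 183 and 159 counts with quercetin. Every quercetin pool was higher, at 20.8 ± 2.49 against 13.7 ± 2.74 CPM (SD, n = 3), a log2 difference of 0.60 (SE 0.23, adjusted p = 0.988 in edgeR's quasi-likelihood test). Its unadjusted p was over 0.05 without control replicate 1, control replicate 2 or quercetin replicate 1 (0.0958, 0.0699 and 0.0893). The co-receptor gene *Eng*, picked after its values were seen, had 22, 21 and 22 counts without and 18, 2 and 2 counts with quercetin, so that 2 of the quercetin pools lay below the floor of 3 counts (log2 fold change -1.48, SE 0.74, adjusted p = 0.988 in edgeR's quasi-likelihood test). In 10 tested SMADs and regulators 2 were higher and 8 lower, with a median of -0.10 and no gene at an unadjusted p under 0.05, and *Smad3* and *Smad4* were the most abundant per kb, at 21.1 and 20.0.

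Few of the other TGF-β ligands were present, with 4 of 25 tested and 11 at 0 in every pool. *Tgfb2*, at 177 CPM per kb, and *Bmp5*, at 101, both stood below *Bmp15* and above every other member but *Gdf9*, though 46.7% of the exon length of *Bmp5* overlaps *Gm26903* on the other strand. Among 5 tested antagonists 4 were higher and 1 lower (median 0.19), among 4 convertases other than *Furin* 3 were higher and 1 lower (median 0.11), and none had an unadjusted p under 0.05. Most abundant of the antagonists were *Fstl1* at 3.58 CPM per kb and *Fstl3* at 2.80, the latter with 47.3% of its exon length under *Prss57* on the other strand. The convertase genes *Mbtps1* and *Pcsk6* had 1.26 and 0.631 CPM per kb, so *Furin* was the highest of its class in mean level here. In 16 tested FGF signalling genes 5 were higher and 11 lower (median -0.07), none at an unadjusted p under 0.05, and the feedback inhibitor gene *Spry4* was the highest at 27.0 CPM per kb, before *Spred1*, another inhibitor of this pathway, at 5.94.

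Of the list on KIT and PI3K signalling, which also holds the ligand gene *Kitl*, 20 genes were tested, 8 higher and 12 lower, with a median of -0.09. The most abundant were *Foxo1*, a transcription factor that PI3K signalling keeps out of the nucleus, at 34.6 CPM per kb, and the kinase gene *Pdpk1* at 12.6. *Pik3ca* (ENSMUSG00000027665), the catalytic PI3K subunit p110α, had 446, 370 and 109 counts without and 64, 93 and 72 counts with quercetin. Control replicate 3 lay close to the quercetin pools and the other 2 controls far above. Its log2 fold change was -2.00 (SE 0.46, adjusted p = 0.893 in edgeR's quasi-likelihood test), while the adjusted p was 0.00290 in DESeq2 and 0.0311 in the likelihood ratio test of edgeR. *Kitl*, the ligand of KIT that granulosa cells are known to make, had 71, 64 and 77 counts without and 95, 112 and 106 counts with quercetin.

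Every quercetin pool was higher for *Kitl*, by 0.59 on the log2 scale (SE 0.21, adjusted p = 0.988 in edgeR's quasi-likelihood test). It is also among the cumulus and granulosa markers, whose summed level was higher in every quercetin pool as given above. *Nr5a2*, the next most abundant of these markers after *Cyp19a1* per kb, had 2.27 CPM per kb. Of the 15 markers 5 were tested, 4 higher and 1 lower with quercetin, with a median log2 fold change of 0.09, and *Kitl* was the one with an unadjusted p under 0.05. That p was 0.0519 without control replicate 1 and 0.0635 without control replicate 2, in the quasi-likelihood fit. In pooled oocytes more adhering cells and more RNA per cell cannot be told apart, and the part of such cells in the values of *Kitl* was not tested. Among 7 tested connexins, pannexins and junction proteins, 4 were higher and 3 lower (median 0.09). *Gja3*, a connexin best known from the lens, had 4, 4 and 14 counts without and 20, 27 and 23 counts with quercetin (log2 fold change 1.68, SE 0.51, adjusted p = 0.988 in edgeR's quasi-likelihood test). Without control replicate 3 its log2 fold change was 2.52. At a mean of 0.601 CPM per kb *Gja3* stood far below *Gja4* with 22.9, and the most abundant of the list, the junction scaffold gene *Tjp1* and the connexin gene *Gja6*, had 1.65 and 0.915.

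The oocyte markers gave a scale for these levels. Per kb *Dppa3* and *Oosp1*, the most abundant of them, stood at 9609 and 6163, above *Gdf9* at 3074, though 29.6% of the 31-base stretches of *Dppa3* also occur in other genes. *Ooep*, a maternal gene of the subcortical complex, was the marker with an unadjusted p under 0.05, at 490.0, 971.5 and 692.7 CPM without quercetin and 236.1, 269.2 and 636.8 CPM with it. The groups overlapped through quercetin replicate 3 and control replicate 1 (log2 fold change -0.92, SE 0.38, adjusted p = 0.988 in edgeR's quasi-likelihood test). For *Ooep* the log2 fold change was -1.50 without quercetin replicate 3. The unadjusted p stayed under 0.05 without that pool or control replicate 1, and was over 0.05 without any other single pool, from 0.0727 without control replicate 3 to 0.154 without control replicate 2, where the log2 fold change was -0.63.

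**Figure D4:**
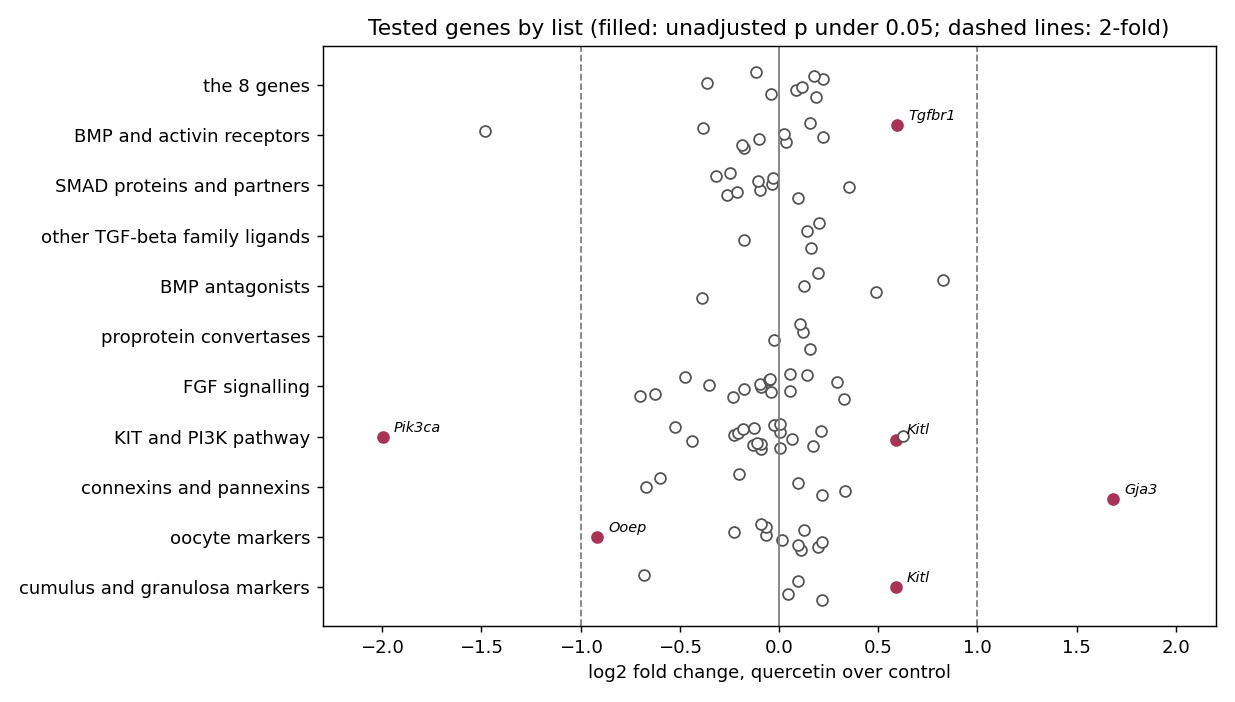
Log2 fold change, quercetin over control (x axis), of the tested genes of each list and of the oocyte and cumulus markers, 1 point a gene, with the 8 genes at the top; filled points have an unadjusted p under 0.05 and dashed lines mark a 2-fold change. *Pik3ca* at -2.00, *Eng* at -1.48 and *Gja3* at 1.68 lie outside the dashed lines, and none of the filled points passed after adjustment in edgeR's quasi-likelihood test, while *Pik3ca* did in DESeq2 and in the likelihood ratio test of edgeR.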

How the data were processed

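Libraries came from the Smart-seq HT kit (full-length cDNA from polyadenylated RNA), and Hisat2 was the authors' aligner, on GRCm38.91. The submitters' processing notes also list CASAVA 1.8 and TopHat2 2.0.6. The deposited values are raw counts of reads per Ensembl gene and pool, with no normalization. The program that counted, and its handling of strand and of reads matching several genes, are not given in the sources used here. Names (53274 of 53465 identifiers), coordinates and exon lengths came from GENCODE release M21 on GRCm38.

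The 8 members and the gene lists were chosen with earlier results of these data known. Counts were filtered with filterByExpr (minimum count 10), scaled by TMM and tested by glmQLFit and glmQLFTest of edgeR 4.0.16 (R 4.3.3) without covariates. P-values were adjusted over 11842 genes by Benjamini-Hochberg, and a call needed a value under 0.05 with a more than 2-fold change. A standard error is the size of the log2 fold change divided by the square root of F, and intervals are 95%. Simulated counts with 200 altered genes were used to test the fit. DESeq2 1.42.0, limma-voom (limma 3.58.1), edgeR's likelihood ratio test, other scalings and filters, a replicate block and leaving out pools were alternatives. Named were the 8 members, the 2 genes most like each, and from each list the genes with an unadjusted p under 0.05 and the 2 most abundant per kb. Any other gene is marked as picked after its values were seen, except *Gja1*, *Ptx3*, *Amhr2* and *Foxl2*, given as defining markers. Ratios between members and the comparison by pool number were chosen after the values were seen. Python 3.11.15 was used for tables and matplotlib 3.10.9 for plots. Protein and promoter sequences were not used here.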

Additional observations from a re-analysis of the deposited data

How the results depend on the processing

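Over 14 alternatives for each of the 8 genes, 107 of 112 log2 fold changes kept their direction and none was called. The 5 that turned were those of *Bmp6*, at 0.09 without control replicate 1, 0.03 without quercetin replicate 2 and 0.094 without quercetin replicate 3, of *Fgf8*, at -0.10 without control replicate 1, and of *Kit*, at 0.0048 without quercetin replicate 1. Leaving out each pool moved *Gdf9* from 0.14 to 0.30, *Bmp15* from 0.08 to 0.30, *Bmp6* from -0.27 to 0.094, *Fgf8* from -0.10 to 0.38, *Kit* from -0.34 to 0.0048, *Gja4* from 0.01 to 0.35, *Bmpr2* from 0.02 to 0.18 and *Furin* from -0.62 to -0.11. By library size only, 0 of the 8 genes had groups without overlap, in place of 1. Genes called over the whole table were 0 in the fit reported, 11 with DESeq2, 16 with edgeR's likelihood ratio test, 3 with no filter on low counts, 103 by unadjusted p and fold change, and 0 to 7 when a pool was left out (7 without quercetin replicate 1 and 6 without quercetin replicate 3).

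Among the 76 tested genes of the lists, 4 had an unadjusted p under 0.05, and 8 with the replicate number as a block. When a pool was left out there were 3 to 8 (8 without quercetin replicate 3). Over all tested genes the same count was 477 of 11842 in the fit reported and 492 of 11842 with the block. With a pool left out it ran from 241 of 12186 without control replicate 2 to 1563 of 12258 without quercetin replicate 3. *Pik3ca* kept its direction under every alternative run, from -2.40 to -1.67 over the pools left out, and was called only by DESeq2 and edgeR's likelihood ratio test. The cause of these differences was not tested. Pools of the same number deviated together by correlations of 0.296, 0.101 and -0.0303 (mean 0.122). Pools of different number had correlations from -0.299 to 0.176 (mean -0.0612). This range held the values of numbers 2 and 3 but not that of number 1, and whether the numbers pair the pools was not tested. With the replicate block *Gdf9* was at 0.22, *Kit* at -0.14 and *Furin* at -0.40, with 0 of the 8 genes called. *Fgf8* had the fewest counts of the 8, at 18 to 33 a pool, and the largest SE, 0.34.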
